A study of Mus musculus with 58 samples.

Results

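Complex I, or NADH:ubiquinone oxidoreductase, was followed through the day in the mouse retina by the 37 nuclear genes whose symbol starts with Nduf and goes on with a, b, c, s or v and a number. They were 37 of 52459 rows of the count table, and all 37 were among the 19120 genes with a median above 4 normalized counts, that is, read counts divided by a factor for the size of each library. The pattern used only the names. It leaves out the assembly factors, the acyl carrier Ndufab1 and the subunits of the mitochondrial genome, which are given further on for comparison.

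The retinas were those of male mice aged 4 months that had lived since birth in cycles of 12 h light and 12 h dark. Diabetic mice had the genotype C57BL/6-Ins2Akita/J and carried 1 mutant copy of Ins2, an insulin gene whose misfolded product destroys the beta cells, so that the animals are hyperglycemic from a young age. Controls were male littermates without that copy, labelled C57/BL/6. Animals of both genotypes were perfused with cold buffered saline and collected at ZT1, ZT5, ZT9, ZT13, ZT17 or ZT21, where ZT counts hours from lights on, and the night points were handled in dim red light. Each library came from the RNA of an individual retinal sample, with 4 to 6 libraries a group and 58 in all. The model has males only, a single age chosen before overt retinopathy, and no time series from the same animal.

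Complex I is the entry point of the mitochondrial respiratory chain. It takes electrons from NADH, passes them along iron-sulfur clusters to ubiquinone and pumps protons across the inner membrane. Its L shape has an arm in the matrix, which holds the NADH and quinone modules, and an arm in the membrane, and around a conserved core lie many accessory subunits that are needed for assembly and stability. Photoreceptors are among the most energy-demanding cells of the body, and they carry their mitochondria packed into the inner segments.

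The libraries held 7773117 to 19929725 counts in control (median 15260957, n = 30) and 8588878 to 22147398 in diabetic retinas (median 15471730, n = 28). The 8 rod markers were all detected, and their normalized counts summed to 539880 in the lowest library and 811560 in the highest. In control, 3 libraries (ZT1 replicate 6, ZT17 replicate 5 and ZT21 replicate 2) held 43206, 28643 and 33064 summed normalized counts of 6 lens genes, against at most 926 in any other library. Counts and medians are given with and without them for several comparisons but not for all. The difference in rhythm, ZT13 against ZT1 in control and genotype at ZT17 and ZT21, for instance, are given only with them. Strand use in the counting was not given in the sources used here, and 14 members overlapped an exon of another gene on the opposite strand, by 4 bases in Ndufa3, 117 in Ndufb11 (Rbm10), 489 in Ndufs1 (Ino80dos) and 616 in Ndufb5 (Mrpl47), so reads in those bases cannot be assigned with certainty. As in any bulk tissue, fewer cells of a type and less RNA per cell cannot be told apart.

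Per length of transcript, Ndufa4 stood highest, at 2333 ± 233 normalized counts per kb in control (SD, n = 30) and 2230.2 ± 240.3 in diabetic retinas (SD, n = 28). Ndufa4 was first isolated with complex I and is now counted as a subunit of complex IV. Ndufb2, Ndufa7 and Ndufb9, accessory subunits of complex I itself, were also near the top, with 1077 ± 108, 1012 ± 98.6 and 990.4 ± 110.7 per kb in control. The place of Ndufb2 rested on the transcript length taken, since 455 bases were used and another principal transcript has 4371.

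The levels spread over a wide range with few breaks, from 1077 per kb for Ndufb2 through 419 for Ndufa9 to 223 for Ndufs4 and 147 for Ndufb4 in control. In the order of control levels, 5 of the 36 neighbouring pairs were apart by more than the larger of their SDs, among them Ndufb9 over Ndufc2, Ndufs5 over Ndufc1, Ndufs4 over Ndufb4 and Ndufb4 over Ndufa4l2. Near 855 to 868 per kb, for instance, Ndufc2, Ndufs7, Ndufv1, Ndufa11 and Ndufb10 followed each other with SDs of 71.6 to 137. The lowest was Ndufa4l2, a paralog of Ndufa4 known as a target of hypoxia-inducible factor, with 14.8 ± 4.75 per kb in control.

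**Figure D1:**
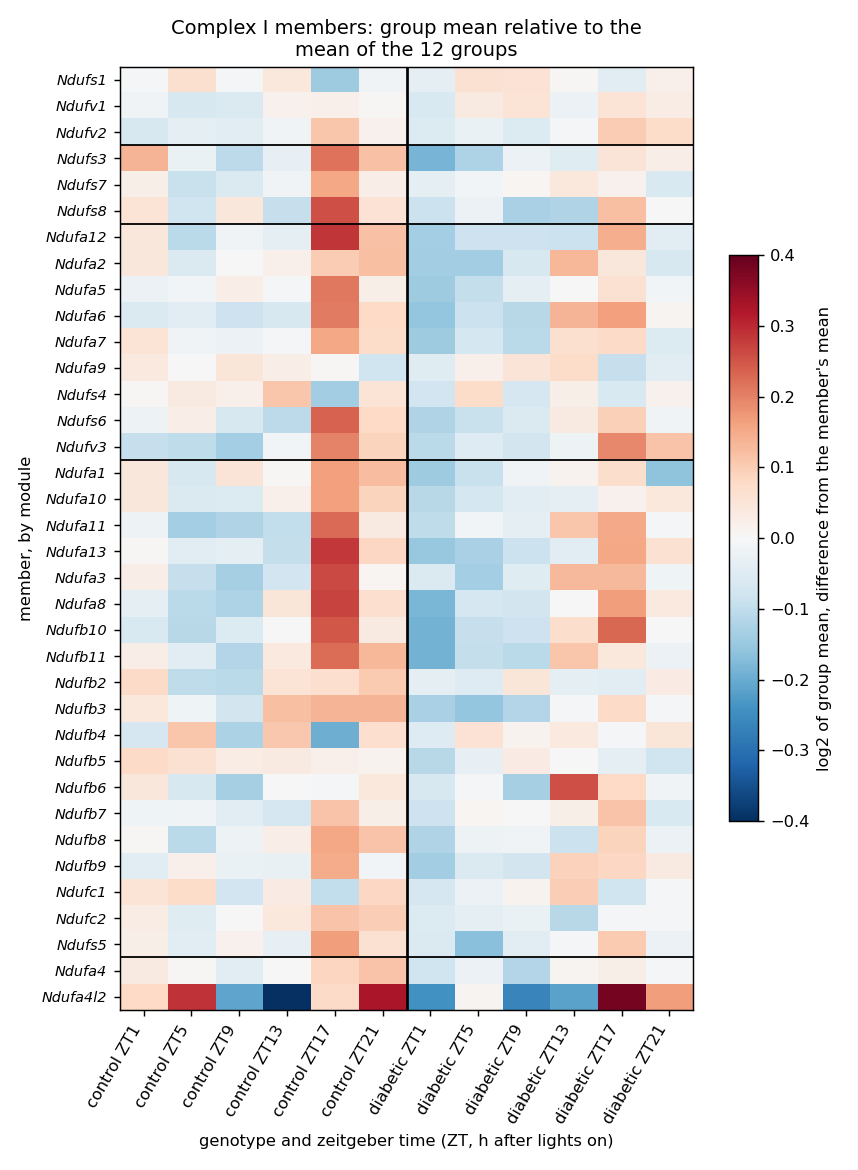
Group means of 36 of the 37 members on the log2 scale, relative to each member's mean over 12 groups, with control on the left, diabetic on the right, time points in columns and members in rows by module. The colours stop at ±0.4, a limit that Ndufa4l2 reached, and most rows are warmest at ZT17 or ZT21 in control.

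The comparison of ZT17, the middle of the night, with ZT5, the middle of the day, gave 8 subunits that rose at night and 1 that fell in control retinas. Of 37 members 9 passed (edgeR quasi-likelihood test, adjusted p under 0.05 over all genes), and the other 28 did not. Of all genes tested 15.4% passed, with 7.44% higher and 7.97% lower, so the share of members was above the background among higher genes and below it among lower ones. An unadjusted p under 0.05 was found for 17 members, and for 31.2% of all genes. The count was 14 with a replicate block (21.7% of all genes), where Ndufa13, Ndufb4, Ndufb8, Ndufb10 and Ndufs7 were gained, and 4 with no filter on low counts (5.31% of the genes then tested), where Ndufa8, Ndufa10, Ndufb11 and Ndufv3 remained. The members' median log2 fold change was 0.16, with 29 of 37 above 0, and over all genes the median was −0.03, with 45.8% above 0.

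Ndufa8, a membrane arm subunit that faces the intermembrane space and holds disulfide-bonded cysteines, changed with the smallest p. The gene lies on chromosome 2 from 36036326 to 36049406 (GRCm38, minus strand). Its control libraries spanned 369 to 419 normalized counts at ZT5 (median 388, n = 6), and read 549.5, 437, 581, 445 and 517 at ZT17. All ZT17 values were above all ZT5 values. The log2 fold change was 0.37 ± 0.09 (SE, adjusted p = 0.00348, edgeR quasi-likelihood test), and Ndufa8 was called in each of the 65 alternative fits, including 58 of 58 with a single library left out.

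Ndufb11, a single-span subunit of the membrane arm that is encoded on the X chromosome (20615326 to 20617619, minus strand), had all ZT17 libraries above all ZT5 libraries in control, with a call that depended on the fit. Its control libraries ranged from 597 to 674 normalized counts at ZT5 (median 639.9, n = 6) and read 743, 735, 878, 676 and 822 at ZT17. The log2 fold change was 0.26 ± 0.08 (SE, adjusted p = 0.0294, edgeR quasi-likelihood test). Over 65 alternative fits it lay between 0.13 and 0.30 with edgeR or DESeq2 adjusted p of 0.0139 to 0.164. The call was lost in 7 of them: with the counts corrected for length and GC content (with or without a replicate block), without the 3 libraries with lens transcripts, and without ZT5 replicate 1, ZT5 replicate 2, ZT17 replicate 3 or ZT17 replicate 5.

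Ndufa10, an accessory subunit of the membrane arm of nucleoside kinase ancestry (chromosome 1, 92439010 to 92473860, minus strand), had 1218 to 1480.5 normalized counts at ZT5 (median 1456, n = 6) and 1921, 1532, 1829.9, 1595 and 1359 at ZT17 in control. The last of these, replicate 5, fell within the ZT5 range. Its log2 fold change was 0.21 ± 0.06 (SE, adjusted p = 0.0204, edgeR quasi-likelihood test).

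Ndufv3, a small subunit at the NADH end of the matrix arm (chromosome 17, 31520115 to 31531331, plus strand), had 896 to 1044 normalized counts at ZT5 (median 972, n = 6) and 1411, 1002, 1411, 1143 and 998.7 at ZT17 in control. Replicates 2 and 5 overlapped the ZT5 libraries. The log2 fold change was 0.29 ± 0.10 (SE, adjusted p = 0.0327, edgeR quasi-likelihood test).

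Ndufs1, the iron-sulfur core subunit that carries electrons onward from the flavin site, was the only one of the 9 to fall (chromosome 1, 63143596 to 63176833, minus strand). Its control libraries spanned 1304 to 1429.7 normalized counts at ZT5 (median 1392, n = 6) and read 1095, 1386, 1076, 1179 and 1246 at ZT17. All but replicate 2 at ZT17 were under the ZT5 range, and the log2 fold change was −0.21 ± 0.07 (SE, adjusted p = 0.0256, edgeR quasi-likelihood test). Over 65 alternative fits it lay between −0.27 and −0.11 with edgeR or DESeq2 adjusted p of 0.00424 to 0.124. The call was lost in 5 of them, among them the length and GC correction and the fit with no filter on low counts. Ndufs8, a quinone-module core subunit with iron-sulfur clusters, passed with 0.33 ± 0.11. It had 367 to 476 normalized counts at ZT5 (median 417.5, n = 6) and 628, 452, 622, 469 and 481 at ZT17 in control, where replicates 2 and 4 overlapped the ZT5 libraries. The other members that passed were the accessory subunits Ndufa11 (0.35 ± 0.12), Ndufa12 (0.39 ± 0.13) and Ndufa3 (0.34 ± 0.12), which like Ndufs8 had adjusted p between 0.0340 and 0.0460 (edgeR quasi-likelihood test). Over the 65 alternative fits the lowest log2 fold changes were 0.152 for Ndufs8, 0.145 for Ndufa11, 0.314 for Ndufa12 and 0.206 for Ndufa3. Their calls were lost in 7, 10, 6 and 11 of the fits in the same order.

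**Figure D2:**
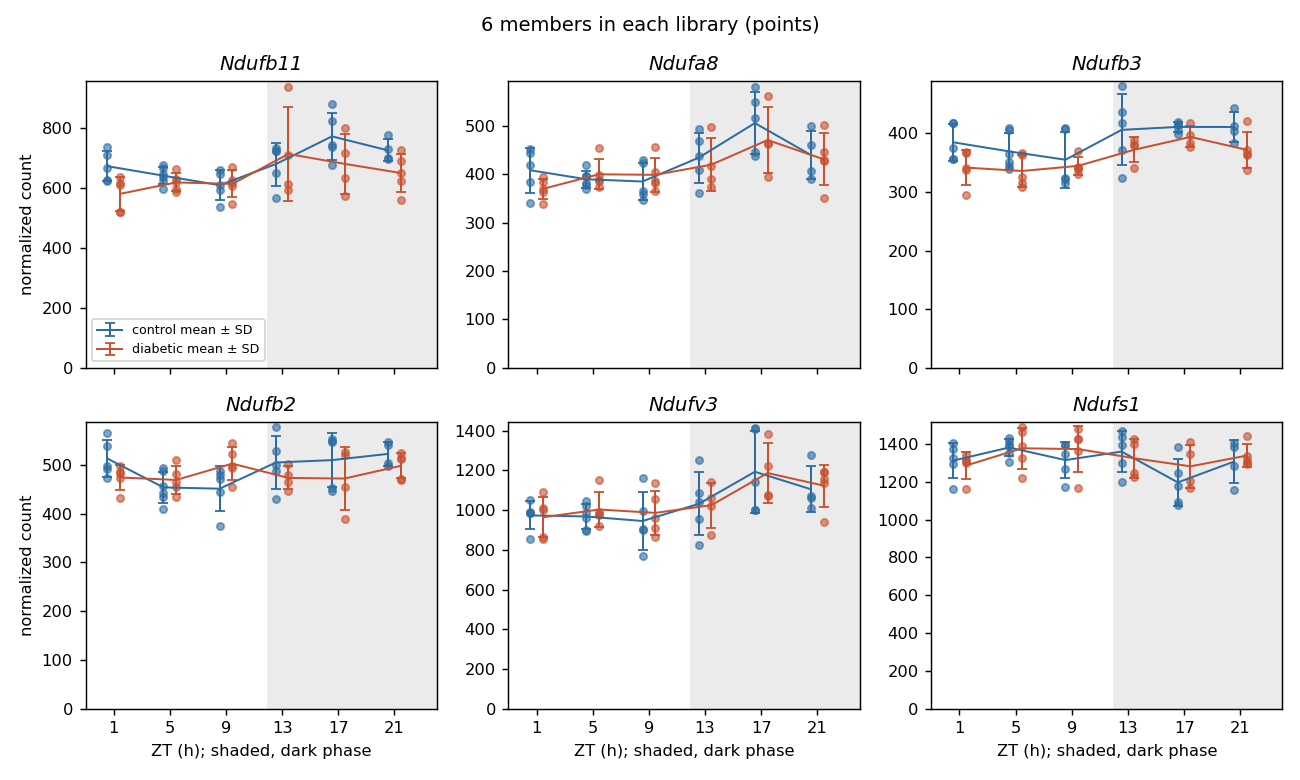
Normalized counts of 6 members in every library against zeitgeber time, with control in blue and diabetic in red, points for libraries, and lines and bars for mean ± SD of 4 to 6 libraries, on axes from 0. The 5 control libraries at ZT17 lie above all 6 at ZT5 for Ndufb11 and Ndufa8, and Ndufs1 is the 1 plotted gene that is lower at ZT17.

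By module, 5 of 19 accessory subunits of the membrane arm passed in control, all higher at ZT17, with a median log2 fold change of 0.19 and 16 above 0. Of all genes 15.4% passed in this comparison, with 7.44% higher and 7.97% lower. The 10 of this arm that had an unadjusted p under 0.05 included Ndufb4, at −0.31 ± 0.12 and an adjusted p of 0.0647 in edgeR's quasi-likelihood test. In the matrix arm 2 of 9 accessory subunits passed, Ndufv3 and Ndufa12, with a median of 0.19, and Ndufs4, which lies at the NADH module and whose loss causes Leigh syndrome, had −0.18 ± 0.09. Of the 4 core subunits of the quinone module 1 passed, and Ndufs7 (0.24) and Ndufs3 (0.23) were among those that did not. Without the libraries with lens transcripts 6 of the membrane arm and 3 accessory subunits of the matrix arm (Ndufs4, lower, was gained) passed. So did 2 of the quinone core (Ndufs7 was gained) and 1 of the NADH core, beside 16% of all genes.

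Of the 3 core subunits of the NADH module Ndufs1 fell, while Ndufv1, which binds NADH and the flavin, had 0.07 ± 0.08 and Ndufv2, which holds an iron-sulfur cluster beside it, 0.14 ± 0.07. Ndufv2 had 736 to 873 normalized counts at ZT5 (median 794, n = 6) and 846, 868, 863, 818 and 983 at ZT17 in control, and the groups overlapped. Group means of Ndufv1 went from 1376 to 1458 normalized counts over the 6 time points in control, and in diabetic retinas from 1379.9 to 1495, with SDs of 69.1 to 228.

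The members that did not pass and are not named above had log2 fold changes from −0.19 to 0.35 between ZT17 and ZT5 in control. The higher end held Ndufb10 (0.35), Ndufa13 (0.31), Ndufb8 (0.25), Ndufa6 (0.24), Ndufa1 (0.22), Ndufa5 (0.21), Ndufs6 (0.19) and Ndufs5 (0.19). Ndufs7 went from 609 ± 48.8 normalized counts at ZT5 (SD, n = 6) to 723 ± 134 at ZT17 (SD, n = 5) in control, and Ndufa4 from 1398 ± 59.6 to 1479.9 ± 219.2, each change smaller than the SD at ZT17. Closer to 0 lay Ndufa7, Ndufa2 and Ndufb2 (each 0.16), Ndufc2 (0.15), Ndufb3 (0.14), Ndufb7 and Ndufb9 (each 0.12), Ndufa4 (0.07), Ndufb6 (0.05), Ndufa9 (−0.01) and Ndufb5 (−0.05). Ndufc1 (−0.18) and Ndufa4l2 (−0.19) were lower at ZT17.

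Promoters were read because 8 members rose between ZT5 and ZT17 in control. RefSeq's table for GRCm38.p6 held a promoter, 250 bases before to 50 after the start, for 32 of 37 members. Both strands were searched for GCGCA, any base and GCGC (NRF1), CCGGAAG (ETS factors) and AANATGGCG (YY1), which are the letters of factors known to act on respiratory chain genes, and for CACGTG (the E-box bound by clock proteins) and AA, any base and TAGGTCA (the element bound by ROR and REV-ERB), with overlaps counted for each. In 23 of the 32, more than 30 of the 250 bases before the start lay in an annotated exon of some gene or transcript (GENCODE, either strand), and in 5 (Ndufa5, Ndufa12, Ndufa13, Ndufb5 and Ndufb11) all 250 did, so that part of what was searched is transcribed sequence or belongs to another start.

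NRF1 letters were in 7 of 32 member promoters (21.9%), beside 5.19% of 27025 promoters in all, in Ndufa5, Ndufa6, Ndufa8, Ndufa11, Ndufb4, Ndufs5 and Ndufs6. YY1 letters were in 7 (21.9%, beside 2.76%) and ETS letters in 4 (12.5%, beside 9.93%). At least 1 of these 3 was in 17 members (53.1%) and in 15.9% of all. The E-box letters were in 2 members (6.25%, beside 8.09%), Ndufa7 and Ndufv1, and the ROR letters in 0, beside 0.259%. A match is a description of the letters and not a site.

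The promoters of Ndufs8, Ndufa3 and Ndufs5 are given up to the base before the start. They were picked from the 9 members with 30 or fewer exon bases before the start and do not stand for the rest. Ndufs8 and Ndufa3 were members that rose at ZT17 in control, and neither held any of the letters in these bases. Ndufs5 did not pass and held the NRF1 letters, in capitals, 98 to 89 bases before its start. Of the other members that rose, Ndufa8 and Ndufa11 held NRF1 letters and Ndufb11 held YY1 letters, while Ndufa10, Ndufa12 and Ndufv3 held none of the letters searched. The 3 printed promoters lie at chr19:3912775-3913024 (minus strand, Ndufs8), chr7:3617123-3617372 (plus strand, Ndufa3) and chr4:123718187-123718436 (minus strand, Ndufs5) in GRCm38.p6 of RefSeq.
Ndufs8: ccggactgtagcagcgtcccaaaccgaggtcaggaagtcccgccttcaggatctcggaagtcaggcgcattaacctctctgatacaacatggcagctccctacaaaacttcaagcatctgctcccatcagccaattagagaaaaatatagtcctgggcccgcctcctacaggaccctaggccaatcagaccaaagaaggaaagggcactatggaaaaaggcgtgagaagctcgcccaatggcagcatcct
Ndufa3: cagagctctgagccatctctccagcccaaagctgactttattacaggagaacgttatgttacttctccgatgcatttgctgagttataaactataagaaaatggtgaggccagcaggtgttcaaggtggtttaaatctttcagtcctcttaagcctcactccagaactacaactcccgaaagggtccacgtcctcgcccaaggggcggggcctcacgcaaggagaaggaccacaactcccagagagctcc
Ndufs5: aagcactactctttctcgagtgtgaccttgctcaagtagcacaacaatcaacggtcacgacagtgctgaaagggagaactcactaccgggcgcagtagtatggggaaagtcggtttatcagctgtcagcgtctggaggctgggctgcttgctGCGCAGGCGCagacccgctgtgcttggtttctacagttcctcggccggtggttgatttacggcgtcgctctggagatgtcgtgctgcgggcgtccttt
The ETS letters of Ndufs8 lay in the 50 bases after its start, which are not printed.

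In diabetic retinas the same comparison gave no member past the threshold. By edgeR's quasi-likelihood test 0 of 37 passed, where 7.72% of all genes did, DESeq2 called 0, and 6 had an unadjusted p under 0.05, as 21.7% of all genes had. The median log2 fold change was 0.13, with 30 of 37 members above 0 and 47.5% of all genes. It was 0.04 with the counts corrected for length and GC content, 0.04 without ZT17 replicate 3 and 0.20 without ZT17 replicate 4. Ndufb3, a single-span membrane subunit, was the nearest, with 308, 326, 364, 366 and 316 normalized counts at ZT5 and 418, 377, 384 and 397 at ZT17. All diabetic ZT17 libraries were above all those of ZT5 for Ndufb3, with a log2 fold change of 0.23 ± 0.08 (SE, adjusted p = 0.0855, edgeR quasi-likelihood test).

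The night to day difference was not shown to differ between genotypes. Tested directly, 0 of 37 members and 0 of all genes passed (edgeR quasi-likelihood test), and DESeq2 was not run on it. An unadjusted p under 0.05 was found for 0 members and 4.01% of all genes. The log2 fold change was the smaller one in diabetic retinas for 25 of 37 members, beside 48.4% of all genes, with a median difference of −0.04. For Ndufa8 the diabetic libraries read 387, 387, 398, 454 and 374 normalized counts at ZT5 and 463, 561, 394 and 465 at ZT17, and the difference in log2 fold change, diabetic less control, was −0.14 ± 0.13. For Ndufb11 it was −0.13 ± 0.13 and for Ndufs1 0.10 ± 0.10.

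**Figure D3:**
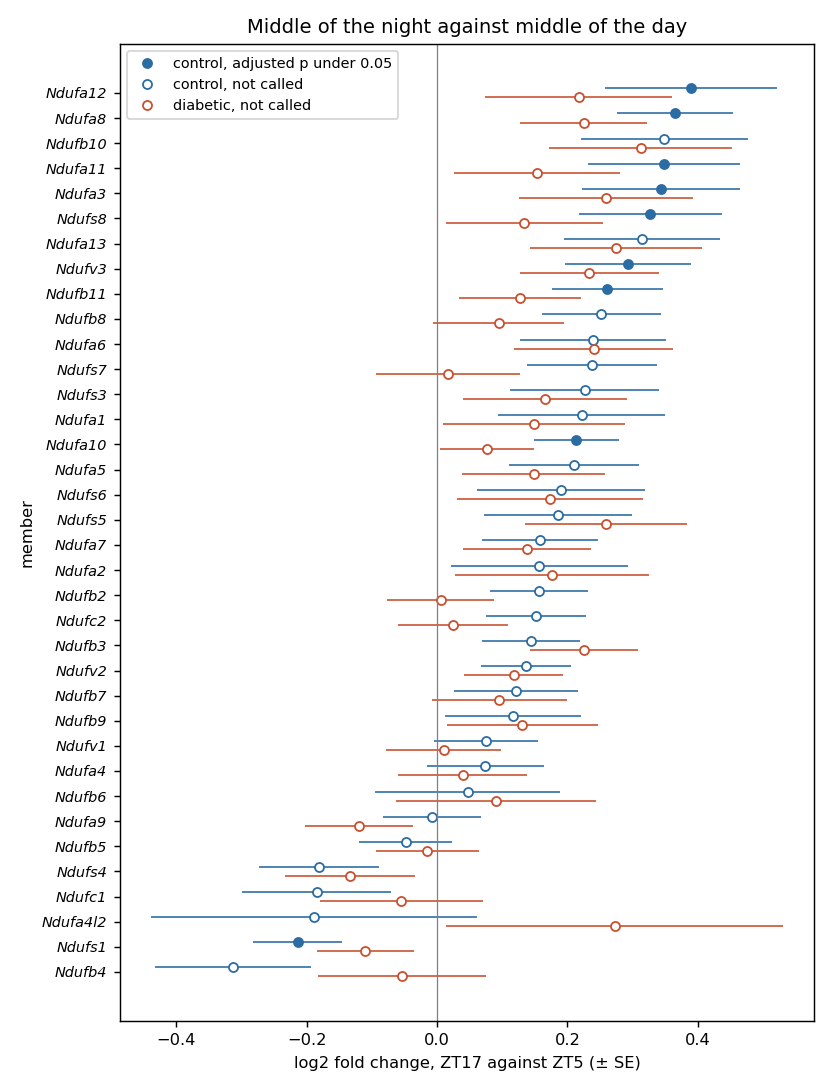
Log2 fold change of ZT17 against ZT5 for 36 of the 37 members, in control and diabetic retinas, with SE bars and the 0 line. Most points of both genotypes lie right of 0, with medians over all 37 of 0.16 and 0.13 (0.10 and 0.04 with the counts corrected for length and GC content), and Ndufs1 and Ndufb4 lie left of it in control.

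Some other measures moved with ZT17. A trend of counts with transcript length and GC content, fitted within each library over all genes and read at the members, averaged 0.07 on the log2 scale at ZT17 and −0.01 at ZT5 in control, with 0.14 and 0.16 in ZT17 replicates 1 and 3. With that trend taken out 7 members passed in control, beside 15.4% of all genes, of which Ndufa8, Ndufa10, Ndufa12 and Ndufv3 were among the 9 and Ndufb2, Ndufb4 and Ndufv2 were not, and the median was 0.10. By direction 6 were higher, beside 6.77% of all genes, and 1 was lower (8.65%). Calls were also sensitive to single libraries, with 1 member called without ZT17 replicate 3 (7.26% of all genes), 2 without ZT17 replicate 1 (9.44%), ZT5 replicate 1 (9.79%) or ZT5 replicate 2 (10.6%), and 5 without ZT5 replicate 3 (12.2%). The share of all genes called fell in the same fits. Without the 3 libraries with lens transcripts 12 members passed, beside 16% of all genes. Among the 9, Ndufb11 and Ndufa3 were then lost and 7 remained.

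Summed markers of other cells moved between the same groups. In control the 6 bipolar cell markers summed to 20327 to 22330 normalized counts at ZT5 and 24045 to 26401 at ZT17, the 5 Müller glia markers to 36209 to 40273 and 43521 to 46081, and the 5 pigment epithelium markers to 477 to 2128 and 1684 to 2921. The 6 cone markers went the other way, from 13131 to 13961 at ZT5 to 11990 to 13311 at ZT17 with some overlap, as did the 4 endothelium markers, from 3258 to 3591 at ZT5 to 2946 to 3194 at ZT17 without overlap. The 8 rod markers overlapped, at 609570 to 684150 and 623410 to 801010, and so did the 5 amacrine cell, 5 ganglion cell and 4 microglia markers, each with a higher mean at ZT17. None of these lists was at 0, and their part in the members' change was not tested.

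The other pairs of time points 12 h apart gave less. Between ZT13 and ZT1 no member passed in control (edgeR, DESeq2 0, 0.832% of all genes) or in diabetic retinas (edgeR, DESeq2 0, 1.4% of all genes). An unadjusted p under 0.05 in edgeR was found for 0 members in control (9.23% of all genes) and 4 in diabetic retinas (11.2% of all genes). The diabetic median was 0.10, with 33 of 37 members above 0 and 49.8% of all genes. Ndufb11 in diabetic retinas read 637, 615, 519, 608 and 518 normalized counts at ZT1 and 709, 594, 612 and 934.5 at ZT13, a log2 fold change of 0.29 ± 0.09 (SE, adjusted p = 0.118, edgeR quasi-likelihood test). The groups overlapped, and a single ZT13 library was far above the others.

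Between ZT21 and ZT9 no member passed in control (edgeR, DESeq2 0, 2.35% of all genes) or in diabetic retinas (edgeR, DESeq2 0, 5.31% of all genes), and the medians were 0.12 and 0.04. With single libraries left out the control median ran from 0.07 (without ZT21 replicate 4, and likewise without ZT9 replicate 3) to 0.15. The diabetic median ran from −0.004 (without ZT21 replicate 3) to 0.09 (without ZT21 replicate 2) and was 0.02 with the counts corrected for length and GC content, so no direction is read from it. An unadjusted p under 0.05 in edgeR was found for 4 members in control (13.9% of all genes) and 0 in diabetic retinas (18.7% of all genes). The 4 in control were Ndufb11 (0.25), Ndufb3 (0.21), Ndufb2 (0.20) and Ndufv3 (0.22), each higher at ZT21. Without the libraries with lens transcripts 6 had one (13.4% of all genes), 0 passed and the control median was 0.13.

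Rhythm over the full day was tested by the rank correlation of each gene with 24 h waves of different phase and shape, against shuffled series. With an unadjusted p under 0.05 and a highest library at least 25% above the lowest, 10 of 37 members were rhythmic in control, where 21.8% of all genes were, and 5 of 37 in diabetic retinas, where 23.9% were. The shares of members were thus near the background in control and below it in diabetic retinas. In both genotypes 4 members were called, Ndufa8, Ndufa10, Ndufv3 and Ndufb3, where 11.9% of all genes were. Without the libraries with lens transcripts 11 members were called in control, beside 20.2% of all genes, with Ndufa3, Ndufa4l2 and Ndufs3 lost and Ndufb8, Ndufb10, Ndufc2 and Ndufv2 gained. With all libraries every member passed the limit of 25% in both genotypes, so the p alone decided the calls. With the fold taken between time point means instead, 6 members were called in control (13.2% of all genes) and 1 in diabetic retinas (14.2%).

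Ndufb11 had the smallest p in control, 0.000146 by permutation of the series (adjusted p = 0.00545), with group means between 608 ± 49.1 normalized counts at ZT9 and 771 ± 79.1 at ZT17 (SD, n = 5 each). The peak of a fitted cosine, the acrophase, was at ZT18.8 ± 0.77 h (SE), and the amplitude was 10.4 ± 2.09% of the mean. Ndufa8 followed with a permutation p of 0.0019 and an adjusted p of 0.0290, an acrophase of ZT17.7 ± 0.88 h and an amplitude of 12.4 ± 2.75%. These were the 2 members with an adjusted p under 0.05 in control, where 8.43% of all genes had one.

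The other members called in control were Ndufb2 and Ndufv3 (each p = 0.0166 by permutation), Ndufa10 and Ndufb3 (each 0.0263), Ndufa3, whose printed promoter held none of the letters searched, and Ndufs3 (each 0.0363), Ndufa11 (0.0403) and Ndufa4l2 (0.0495). Ndufs3, the core subunit of the quinone module, went from 210 ± 17.0 normalized counts at ZT9 to 262 ± 47.4 at ZT17 (SD, n = 5 each). Ndufa4l2 differed from the rest in timing, with its fitted peak at ZT24.0, close to lights on, and its counts were low, between 10.2 and 16.8 in the group means. Ndufb2 went from 451 ± 46.0 at ZT9 (SD, n = 5) to 522 at ZT21 (498 to 547, n = 4).

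In diabetic retinas Ndufb3 had the smallest p, 0.000988 by permutation (adjusted p = 0.0176), and was the only member with an adjusted p under 0.05, where 9.89% of all genes had one. Its group means went from 336 ± 27.2 normalized counts at ZT5 (SD, n = 5) to 394 at ZT17 (377 to 418, n = 4), with an acrophase of ZT16.9 ± 0.83 h. Ndufa8 (p = 0.00819 by permutation), Ndufa10 (0.0124), Ndufv3 (0.0186) and Ndufa6 (0.0391) were also called, and Ndufb5 was next (0.0606) with a fitted peak in the day at ZT10.8. Ndufa6, a matrix arm subunit of the LYR protein family, read 359 ± 18.4 at ZT1 (SD, n = 5) and 447 ± 55.5 at ZT17 (SD, n = 4).

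These counts turned on single libraries, and the share of all genes called moved as well. In control, 18 members were called without ZT9 replicate 4 (26.6% of all genes), 6 without ZT17 replicate 5 (20.7%), and 5 without ZT9 replicate 2 or 3, ZT17 replicate 1 or 3, or ZT21 replicate 4 (19.1% to 19.8%), each left out singly. In diabetic retinas, 8 were called without ZT17 replicate 4 (23.0%) and 3 without ZT17 replicate 3 or 5 (21.0% and 20.8%).

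Most fitted peaks of the members lay in the dark phase. In control 30 of 37 acrophases lay in the dark phase, against 47.2% of all genes, and the median was ZT18.8 (ZT18.4 without the libraries with lens transcripts). In diabetic retinas 29 of 37 lay in the dark phase, against 49.1% of all genes, and the median was ZT15.5. The 7 members with a fitted peak in the light phase in control included Ndufs1 (ZT6.19 ± 1.71 h), Ndufs4, Ndufa9, Ndufb4, Ndufb5 and Ndufc1, and for each of these but Ndufs1 the SE was over 2 h. The median amplitude was 6.18% of the mean in control and 6.27% in diabetic retinas, beside 7.07% and 7.26% for all genes.

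The acrophase was earlier in diabetic retinas for 28 of 37 members (75.7%), beside 59.7% of all genes, with a median difference of −1.96 h for the members and −0.68 h for all genes. Among the 12 members with an SE under 2 h in both genotypes, 11 were earlier and the median difference was −1.66 h, and among the 5214 genes of that kind 68.2% were earlier with a median of −0.67 h. With single libraries left out the median moved from ZT17.95 to ZT19.18 in control, and in diabetic retinas from ZT15.06 to ZT16.37, and the jackknife SE was 1.33 and 1.62 h. The genotype difference in these medians was not tested, and members share their libraries, so their number does not add precision. The count was 28 of 37 and the median difference −1.51 h when the libraries with lens transcripts were left out. Without ZT1 the medians were ZT18.9 in control and ZT17.1 in diabetic retinas, and 26 of 37 were earlier (70.3%, beside 54.2% of all genes) with a median difference of −1.33 h.

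Among single members the differences ran from Ndufs7 (−6.61 ± 4.07 h, SE) to Ndufc1 (10.3 ± 4.58 h). For Ndufb11 the peak was at ZT18.8 ± 0.77 h in control and ZT15.1 ± 1.42 h in diabetic retinas, a difference of −3.72 ± 1.61 h. For Ndufa8 it was −1.34 ± 1.53 h, for Ndufb3 −1.53 ± 1.54 h and for Ndufv3 −0.27 ± 1.68 h. The last 3 were within their SE.

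**Figure D4:**
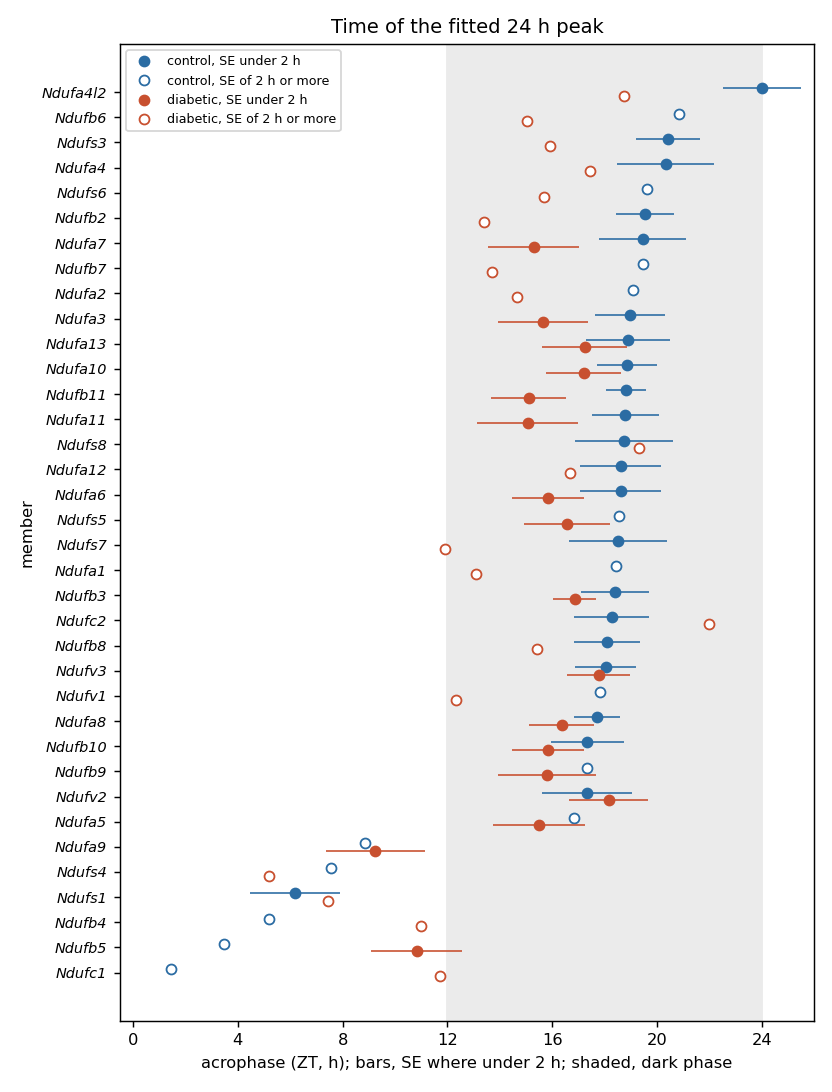
Time of the fitted 24 h peak of 36 of the 37 members in control and diabetic retinas, in hours of ZT, with SE bars where the SE is under 2 h and the dark phase shaded. Most control points lie near the median of ZT18.8 and most diabetic points near ZT15.5, with a few control members in the light phase.

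No member differed in rhythm between genotypes when cosine and sine terms were tested against genotype. By edgeR's quasi-likelihood test 0 of 37 members and 0 of all genes passed, 0 members and 3.6% of all genes had an unadjusted p under 0.05, and DESeq2's likelihood ratio test called 0. The smallest unadjusted p were those of Ndufb11 (0.0524), Ndufb2 (0.0621), Ndufs3 (0.135), Ndufs7 (0.153) and Ndufb5 (0.204), each with an adjusted p of 1.00 by edgeR. Ndufb2 went from an amplitude of 7.70 ± 2.26% in control to 0.42 ± 2.03% in diabetic retinas.

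Levels in diabetic and control retinas were compared over all time points, and no member passed. By edgeR's quasi-likelihood test 0 of 37 passed, DESeq2 called 0, and 3.17% of all genes passed. An unadjusted p under 0.05 was found for 8 members in edgeR (15.8% of all genes) and 7 in DESeq2, and all 8 were lower in diabetic retinas (7.54% of all genes). The median log2 fold change was −0.03 and 30 of 37 members were below 0, as were 49.2% of all genes. Without the libraries with lens transcripts 4 members had an unadjusted p under 0.05 (14.9% of all genes) and the median was −0.02. It was −0.05 with a replicate block and also without diabetic ZT17 replicate 3 or ZT13 replicate 5, and −0.02 with the counts corrected for length and GC content.

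Ndufb3 was the nearest, at −0.11 ± 0.04 (SE, adjusted p = 0.0674, edgeR quasi-likelihood test). Its group means in control were 385, 369, 355, 406, 411 and 411 normalized counts from ZT1 to ZT21, and in diabetic retinas 342, 336, 345, 372, 394 and 372. The diabetic mean was the lower of the pair at each of the 6 time points, by more than the larger SD of the pair at ZT1, ZT5 and ZT21 and by less at ZT9, ZT13 and ZT17. Ndufb5 (−0.08 ± 0.03, adjusted p = 0.151 by edgeR) and Ndufc2 (−0.08 ± 0.03, adjusted p = 0.230 by edgeR), both of the membrane arm, came next. Ndufb3 passed when time point was added as a factor, where 5.04% of all genes passed, and with a replicate block. It also passed without control ZT9 replicate 1, 2 or 3 or control ZT13 replicate 2, each left out singly. The same held without diabetic ZT17 replicate 1 or diabetic ZT21 replicate 3. It was the only member called in these fits. Shares of all genes with the replicate block or with single libraries left out are not given here.

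At single time points no member passed (edgeR quasi-likelihood test and DESeq2, 0 at each of the 6). Members with an unadjusted p under 0.05 in edgeR numbered 6 at ZT1 (5.74% of all genes), 0 at ZT5 (6.26%), ZT9 (4.48%) and ZT13 (4.36%), and 1 each at ZT17 (9.26%) and ZT21 (4.89%). Of all genes, 0.0209% passed at ZT1 and at ZT5, 0.00523% at ZT9, 0.246% at ZT17 and 0% at ZT13 and ZT21.

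At ZT1 35 of 37 members were lower in diabetic retinas, beside 47.2% of all genes, with a median log2 fold change of −0.11. Ndufs3 read 277, 241, 208, 210.3 and 304 normalized counts in control and 212, 206, 155, 205 and 212 in diabetic retinas, a log2 fold change of −0.32 ± 0.12 (SE, adjusted p = 0.684, edgeR quasi-likelihood test). Ndufb5, Ndufb11, Ndufa10, Ndufa7 and Ndufb3 had −0.18, −0.21, −0.15, −0.19 and −0.16, all with unadjusted p under 0.05. Without the control library of ZT1 that held lens transcripts and the other 2 of that kind, 33 were lower, the median was −0.08 and 1 had an unadjusted p under 0.05 (4.82% of all genes), and with the length and GC trend taken out the median was −0.06. Summed cell markers also moved at ZT1. The 8 rod markers summed to 634550 to 701790 normalized counts in control and 603600 to 650110 in diabetic retinas, the 6 cone markers to 12145 to 13722 and 11426 to 12392, the 6 bipolar cell markers to 19312 to 21910 and 16243 to 20727, and the 5 Müller glia markers to 38974 to 42869 and 33092 to 40070. Each of these lists was lower on average in diabetic retinas with overlapping ranges, as were the amacrine cell, endothelium and microglia lists. The ganglion cell and pigment epithelium lists went the other way. Their geometric means were 8307 and 809 in control and 8388 and 837 in diabetic retinas. The part of these markers in the members' levels was not tested.

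The mean of the 37 members in each library, on the log2 scale and relative to the mean of all 58 libraries, gave the day course at a glance. From ZT1 to ZT21 the control group means were 0.02, −0.02, −0.05, −0.01, 0.12 and 0.07. Diabetic group means were −0.10, −0.04, −0.04, 0.01, 0.07 and 0.00 in the same order. The control means were −0.02 at ZT1, 0.12 at ZT17 and 0.08 at ZT21 when the libraries with lens transcripts were left out. Libraries of a group spread widely, from 0.02 to 0.23 at ZT17 in control and from −0.12 to 0.24 in diabetic retinas.

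**Figure D5:**
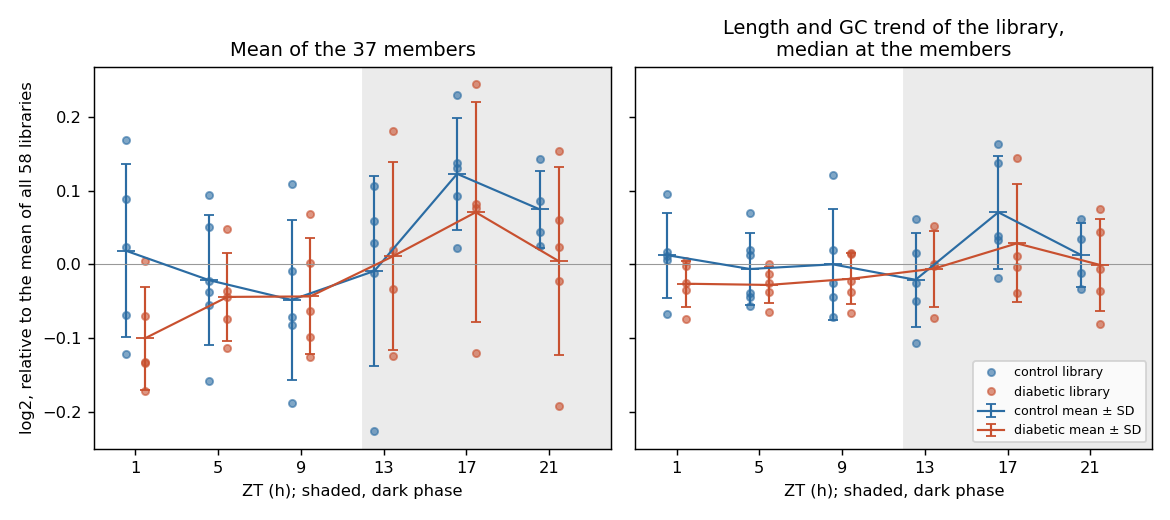
Left, mean of the 37 members in each library (log2, relative to the mean of all 58 libraries) against zeitgeber time, with points for libraries and lines and bars for mean ± SD of each group of 4 to 6. Right, the length and GC trend of the same libraries read at the members, which is also highest at ZT17 in control (0.07).

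The other genes of the respiratory chain were taken as lists. For 36 subunits of complexes III, IV and V the control ZT17 to ZT5 comparison gave 7 past the threshold (edgeR quasi-likelihood test), 6 higher and 1 lower, beside 15.4% of all genes, with a median log2 fold change of 0.16. In diabetic retinas 1 of 36 passed (7.72% of all genes), Uqcrh at 0.26 ± 0.08 (SE, adjusted p = 0.0376, edgeR quasi-likelihood test), and the median was 0.12. Those higher in control were Uqcrh (0.28), Uqcrq (0.33), Cox6b1 (0.36), Atp5b (0.23), Atp5d (0.43) and Atp5g1 (0.25), and Atp5l was lower (−0.43). Their median acrophase was ZT18.8 in control and ZT15.9 in diabetic retinas, with 32 of 36 earlier in the latter. Without the libraries with lens transcripts 5 passed, with Cox6b1 and Atp5g1 lost, and the median was 0.13.

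Assembly factors build complex I but are not part of it. Of 16 such genes 3 passed between ZT17 and ZT5 in control (15.4% of all genes), all lower at ZT17, which were Acad9 (−0.24), Foxred1 (−0.25) and Nubpl (−0.48), and in diabetic retinas 2 passed (7.72% of all genes), Acad9 (−0.26) and Nubpl (−0.47), both lower. The median acrophase of the 16 was ZT5.73 in control and ZT4.16 in diabetic retinas, but single genes peaked at night, such as Timmdc1, called rhythmic in control with a peak at ZT18.5. Foxred1 was lost without the libraries with lens transcripts, and the control median was ZT5.95. The difference in timing from the members was not tested. The 5 subunits of the mitochondrial genome that could be tested (mt-Nd1, mt-Nd2, mt-Nd4, mt-Nd5, mt-Nd6) had log2 fold changes from −0.46 to −0.06 in control, with 0 called and 0 with an unadjusted p under 0.05 in edgeR, and Ndufab1 had −0.15 ± 0.08 (SE, adjusted p = 0.221, edgeR quasi-likelihood test). Of 4 complex II subunits 0 were called in control (edgeR, 0 with an unadjusted p under 0.05).

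Of 11 regulators of mitochondrial biogenesis 2 passed between ZT17 and ZT5 in control, beside 15.4% of all genes, both estrogen-related receptors, a family of orphan nuclear receptors that act on genes of oxidative metabolism. Esrrb, abundant in rods, rose by 0.68 ± 0.09 in control (SE, adjusted p = 3.39e-07, edgeR quasi-likelihood test) and by 0.75 ± 0.10 in diabetic retinas (adjusted p = 5.25e-07). Esrrg rose by 0.20 ± 0.06 in control (adjusted p = 0.0319, edgeR quasi-likelihood test), and in diabetic retinas it had 0.18 ± 0.07 (adjusted p = 0.108). Its control call was lost without the libraries with lens transcripts, and that of Esrrb was not.

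Among genes that are no members, the 5 whose 12 group means followed the mean profile of the members most closely were Asic4 (Pearson r = 0.97), Prdx2 (0.96), Cacng4 (0.96), Uqcrq (0.96) and Mif (0.95), picked as the highest of all expressed genes and given as a description, since the points share libraries with the members. Uqcrq is a subunit of complex III, and Prdx2 is a peroxiredoxin.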

How the data were processed

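RNA of whole retinas was sequenced in 58 libraries of 12 groups (genotype by time point), after ribosomal RNA was removed. Per the submitters' processing notes, the authors checked reads with FastQC, aligned them with STAR 2.7.4a to GRCm38.p5 and counted reads per gene with HTSeq 0.11.1, and the notes name DESeq2 1.26.0. The strand setting was not given in the sources used here. The deposited values are raw counts per gene, with 1 table for the series. Groups came from the sample labels, and replicates were separate animals per the study's methods.

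Genes with a median above 4 normalized counts (DESeq2 size factors) were kept, 19120 in all. Counts were tested with edgeR 4.0.16 (R 4.3.3, TMM factors, quasi-likelihood test, Benjamini-Hochberg adjustment over all kept genes, threshold 0.05), in a fit of 12 groups for single time points and in a fit of 2 genotypes, or of genotype by a 24 h cosine, over all libraries. The study's rhythm programs were not installed: empirical JTK_CYCLE was re-written in Python 3.11.15 (6 phases, 5 widths, 1000000 shuffled series), and an interaction test stood in for its test of differential rhythm. Acrophases came from least-squares cosines. Fits were tested on simulated data. The p-values of the count tests set a difference between groups against the spread between libraries, and those of the rhythm test come from the shuffled series.

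The members and the gene lists were chosen with earlier results of these data known. Values by time point or library are given for the core subunits (1 member is not reported here by name and is left out of the plots by member, but is in every count), the 5 members with the smallest rhythm p in each genotype and for the difference in rhythm, the 3 with the smallest p between genotypes over all time points, members with an adjusted p under 0.05 in a count test (the 5 with the smallest p where there were more), Ndufa4, Ndufa4l2 and the most and least abundant member per length. Values for other members are ranges or fold changes, and any further library values were given after they were seen. Genes of like profile were the 5 with the highest Pearson correlation over 12 group means.

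Alternatives were DESeq2 1.42.0, its size factors, no filter, a correction of counts for length and GC content fitted within each library, a replicate block, time point as a factor, other rhythm criteria, each time point and each library left out, and, chosen after seeing the data, leaving out the 3 libraries with lens transcripts and the test of the difference between genotypes in the ZT17 to ZT5 comparison. Blood genes were not among the kept genes. Gene positions and lengths are from the GENCODE annotation of GRCm38, and lengths per kb are those of the best supported principal transcript.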

Additional observations from a re-analysis of the deposited data

Results flagged for a closer look

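A value that stood far from the others of its group (Dixon's test at 95%, groups of 4 to 6 libraries) was found in 10 of 228 groups examined, and chance flags about 1 group in 20. In control retinas, Ndufa10 read 1218 normalized counts in ZT5 replicate 1 (others 1387 to 1480.5), Ndufc2 619 in ZT5 replicate 4 (532 to 564) and Ndufs7 814 in ZT9 replicate 4 (532 to 605). At ZT21 in control, Ndufv1 read 1544 in replicate 1 (1393 to 1418), Ndufs3 254 in the same library (241 to 242) and Ndufv2 877 in replicate 3 (799 to 809).

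In diabetic retinas, Ndufs1 read 1160.2 normalized counts in ZT1 replicate 4 (others 1299 to 1341), Ndufs3 155 in ZT1 replicate 3 (205 to 212), Ndufb3 370.4 in ZT9 replicate 3 (331 to 342) and Ndufv3 939 in ZT21 replicate 2 (1136 to 1194). The library with the low Ndufs3 value at ZT1 held 926 summed counts of lens genes. Diabetic ZT9 replicates 4 and 5 held 922 and 915 and read 233.5 and 213 for Ndufs3, and ZT13 replicate 4 held 821 and read 192. The 3 control libraries with 28643 to 43206 read 241 to 304. The part of lens tissue in the low value was not tested.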

How the results depend on the processing

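No called value changed sign under the alternatives run. Of the counts of calls and the median acrophases under settings other than single libraries left out, 143 stayed near the reported value and 19 moved. Most of the 143 were counts of 0 that stayed at 0, so these totals do not show how firm the counts above 0 are. Median fold changes were not rated in this way, and several moved by more than 1.5 times with the length and GC correction. Same-numbered samples correlated above 0.1 in 171 of 289 pairs (median 0.18, lowest −0.65), beside 415 of 1251 pairs with other numbers (median −0.03), and in 19 of 26 at the same time point (median 0.27). They tended to deviate together, though not in every pair. What the numbers stand for was not given in the sources used here, and the main fits did not use them. A replicate block raised the ZT17 to ZT5 count in control from 9 to 14 (15.4% and 21.7% of all genes). It raised the genotype count over all time points from 0 to 1, which time point as a factor also gave (1, beside 5.04% of all genes). No filter gave 4 in the first of these. With the length and GC correction ZT21 against ZT9 gave 1 in control, where 916 of 19120 genes passed, against 450 without the correction. In diabetic retinas the correction gave 0 members, while the genes that passed rose from 1015 to 1921. Adding the replicate block to the correction gave 2 members for control and 1 for diabetic retinas. The share of all genes in that last fit is not given here. Rhythmic members in control were 2 by adjusted p (8.23% of all genes), 6 by the fold of time point means (13.2%), 5 without ZT5 (15.9%), 2 without ZT17 (14.1%) and 4 without ZT21 (18.9%). An edgeR cosine fit, with an unadjusted p under 0.05 and no limit on the fold, gave 13 (27% of all genes), and 18 (30.3%) with the replicate block. In diabetic retinas the rhythmic members were 3 with the length and GC correction (28.1%), 1 by adjusted p (9.80%), 1 by the fold of means (14.2%) and 2 without ZT1 (21.3%), ZT17 (16.3%) or ZT21 (16.4%). The cause of these moves was not tested. With single libraries left out, calls ranged from 1 to 13 for ZT17 against ZT5 in control (7.26% to 19.6% of all genes). For ZT13 against ZT1 in diabetic retinas and for genotype over all time points they ranged from 0 to 1 (1.4% and 3.17% of all genes with every library in). Rhythm calls ranged from 5 to 18 in control (19.1% to 26.6%) and from 3 to 8 in diabetic retinas (20.8% to 25.9%). The acrophase medians ranged from 17.95 to 19.18 and 15.06 to 16.37, and all other counts stayed at 0. With 7773117 to 22147398 counts a library, Ndufa4l2 at about 14 normalized counts is the member most limited by depth.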
